A study of Mus musculus with 49 samples.

Results

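The core circadian clock loop of the mouse was followed in frontal cortex through its 8 genes, Arntl, Clock, Npas2, Per1, Per2, Per3, Cry1 and Cry2, which were chosen by name among the 24495 genes of the table. All 8 were found, and all 8 passed the filter on low values in every comparison. RNA sequencing covered 49 libraries in 5 groups, all from mice fed a high fat diet. One group, labelled AKO for amylin knockout, was fed it over 4 months (10 libraries). Another group carried a conditional human amylin transgene and received tamoxifen (10 libraries), and a further group with the same transgene received vehicle (10 libraries); both had 4 months of diet and were collected 2 months after injection. WT mice were fed it over 4 months in 10 libraries and over 2 months in 9 libraries. The labels give neither the promoter of the transgene nor the driver of the recombinase, and they give no sex, litter, batch or time of day. Whether libraries are separate animals is not stated, so p-values reflect spread among libraries that may be technical, and no level can be placed on the daily cycle.

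The clock loop is a feedback circuit. Arntl (BMAL1) pairs with Clock, or with the related Npas2, to form an activator that binds E-box DNA motifs, and among its targets are the Period (Per) and Cryptochrome (Cry) genes. Period and Cryptochrome proteins then return to the nucleus and repress the activator, which closes a cycle of about a day. In the forebrain Npas2 is an abundant partner of Arntl, and Per1 and Per2 also respond to stimuli through cyclic AMP response elements.

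A few facts of the whole series bear on these genes. Recovered depth was 29.2 to 75.6 M (mega) reads per library. Iapp, the amylin gene, had 36 to 116 reads in the 10 libraries labelled AKO and 0 reads in each of the 10 WT libraries at 4 months, which goes against the label, so the group is called here the libraries labelled AKO. The tamoxifen, vehicle and 2-month WT libraries had 0 or 1 read each. Exchanged labels and an altered allele that is still transcribed cannot be told apart here, and WT at 4 months is named by its label alone, so the sign of each difference between these groups rests on the labels. Tamoxifen library 9 and vehicle library 3 stood apart from the other 47. The mean z-score of the markers of excitatory cortical neurons was -3.72 in tamoxifen library 9 and -3.14 in vehicle library 3, against -1.12 to 1.18 in the other 47. Results that rest on these libraries are given with and without them. Olfactory bulb markers also varied over the series: the mitral cell factor Eomes spanned 0 to 4214 normalised reads in the other 47 libraries and reached 5375 in vehicle library 3. Hypothalamus markers varied too, with a mean z-score of 3.04 in tamoxifen library 9. It was 2.78 in tamoxifen library 27, 2.60 in vehicle library 41 and 2.25 in library 7 labelled AKO. In tamoxifen library 9 Avp had 1965 normalised reads, against a median of 7.4 in the other 47. The part of these markers in the clock gene levels was not tested.

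Sequences around the start of 5 clock genes are shown, in each case a window that held at least 1 of the motifs marked. Each is the window of 250 bases before to 50 after a transcription start from RefSeq (GRCm38.p6), of which 7 of the 8 genes had at least 1 (Per2 had no entry). Capitals mark the E-box CACGTG, the E′-box CACGTT (written AACGTG on the other strand), the D-box TTATGTAA or TTACGTAA, and the RORE core TAGGTCA or TGGGTCA, all searched on both strands.
Arntl, chr7:113207261-113207560, plus strand: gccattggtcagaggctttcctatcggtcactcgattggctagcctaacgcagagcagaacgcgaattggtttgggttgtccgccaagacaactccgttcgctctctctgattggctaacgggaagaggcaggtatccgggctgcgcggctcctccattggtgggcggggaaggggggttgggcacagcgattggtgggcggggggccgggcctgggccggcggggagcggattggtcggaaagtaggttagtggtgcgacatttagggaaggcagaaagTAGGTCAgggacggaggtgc
Per1, chr11:69098699-69098998, plus strand: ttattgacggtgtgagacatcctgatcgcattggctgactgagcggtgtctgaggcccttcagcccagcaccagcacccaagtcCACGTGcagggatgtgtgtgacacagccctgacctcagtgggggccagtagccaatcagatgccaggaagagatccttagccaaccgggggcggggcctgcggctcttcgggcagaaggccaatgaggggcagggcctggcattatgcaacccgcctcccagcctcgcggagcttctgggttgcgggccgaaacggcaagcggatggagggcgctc
Per3, chr4:151044616-151044915, minus strand: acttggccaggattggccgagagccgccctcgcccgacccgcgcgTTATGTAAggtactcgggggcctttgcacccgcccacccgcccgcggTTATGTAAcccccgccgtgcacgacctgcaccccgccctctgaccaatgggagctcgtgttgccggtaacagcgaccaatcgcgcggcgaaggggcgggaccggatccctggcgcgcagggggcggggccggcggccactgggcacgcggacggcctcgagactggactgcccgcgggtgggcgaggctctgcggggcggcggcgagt
Cry1, chr10:85185005-85185304, minus strand: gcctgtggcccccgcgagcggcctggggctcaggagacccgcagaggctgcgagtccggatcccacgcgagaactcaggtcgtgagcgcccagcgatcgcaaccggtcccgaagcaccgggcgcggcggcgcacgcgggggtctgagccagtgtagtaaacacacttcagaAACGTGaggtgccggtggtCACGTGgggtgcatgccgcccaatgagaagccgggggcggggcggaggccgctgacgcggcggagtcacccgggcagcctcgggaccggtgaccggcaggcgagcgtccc
Cry2, chr2:92434020-92434319, minus strand: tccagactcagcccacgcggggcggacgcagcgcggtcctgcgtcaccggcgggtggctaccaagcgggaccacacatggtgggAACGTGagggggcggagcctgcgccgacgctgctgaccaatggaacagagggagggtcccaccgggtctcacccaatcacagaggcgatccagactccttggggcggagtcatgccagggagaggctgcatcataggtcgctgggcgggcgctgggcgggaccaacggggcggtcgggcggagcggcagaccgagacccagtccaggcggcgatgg

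An E-box stood in the windows of Per1, with its first base at position -166 from the start, and Cry1, at -60, and 7.15% of 32851 RefSeq windows of this length held one. An E′-box was found in Cry1 and in Cry2 (4.69% of windows). Per3 had a pair of D-boxes, at -205 and -158 (1.06% of windows), and the Arntl window shown, the second of its starts, had a RORE core at 31 (6.45% of windows). The first Arntl window and the second Per1 window, which are not shown, held none of the motifs marked. The shorter cyclic AMP element TGACG occurred in Per1, Cry1 and Cry2 (20.8% of windows), while the full element TGACGTCA was in none of the windows of the 7 genes (1.79% of windows). None of these motifs occurred in the windows of Clock and Npas2. A match is a description of letters, and binding was not measured.

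By GENCODE M21 (GRCm38), Npas2 and Per2 lie on chromosome 1, Cry2 on 2, Per3 on 4, Clock on 5, Arntl on 7, Cry1 on 10 and Per1 on 11. All 8 genes were well covered, with 585 to 12901 recovered reads per library and gene. Per kilobase of exon, Cry2 was the most abundant with 26.7 ± 1.67 RPKM (reads per kilobase of exon per M reads; SD, n = 49 libraries), followed by Per1 with 17.7 ± 4.77 RPKM. Npas2 had 9.76 ± 1.35 RPKM, above its paralog Clock with 7.21 ± 0.58 RPKM. That order rests on the exon length used, which was all annotated exon bases (4791 for Npas2 and 13727 for Clock). Before division by length, Clock had the higher median of normalised reads in each group. Cry1 had 7.15 ± 1.17, Per2 5.69 ± 1.13, Arntl 5.17 ± 0.57 and Per3 3.13 ± 0.44 RPKM. The spread of Clock overlapped that of Cry1, and those of Per2 and Arntl also overlapped. Npas2 and Clock, the alternative partners of Arntl, were both present in all 49 libraries.

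**Figure D1:**
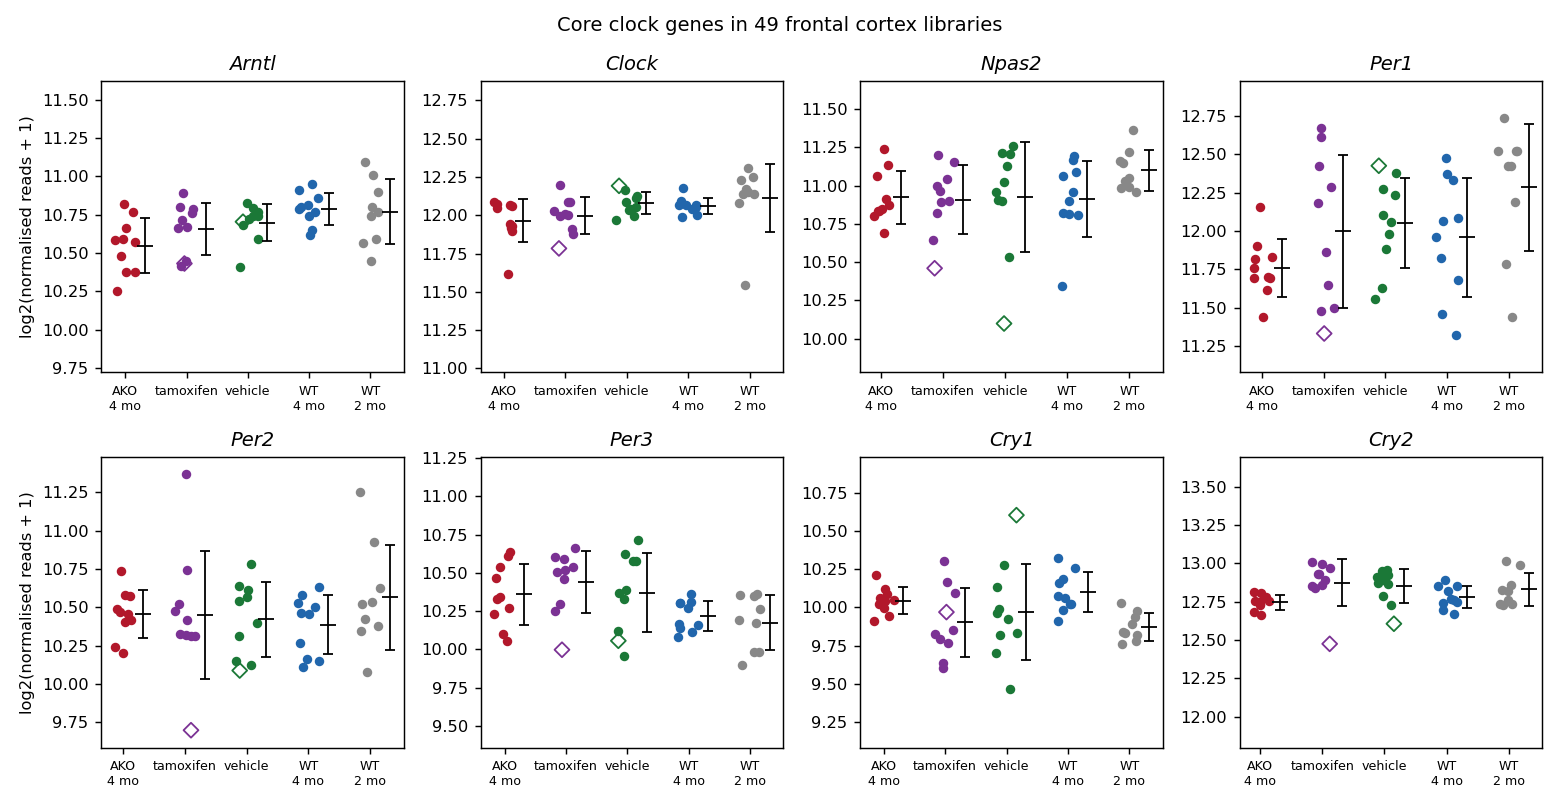
Deposited level, log2(normalised reads + 1), of each clock gene in each of the 49 libraries, with 1 panel a gene spanning the same height on its log2 axis; bars are the group mean and SD, and open diamonds are tamoxifen library 9 and vehicle library 3. Per1 and Per2 scatter widely within groups, Cry2 is tight, and for Cry1 6 of 10 WT libraries at 4 months sit above all those at 2 months.

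Within groups, Per1, Per2 and the Arntl partner Npas2 varied most between libraries, and Cry2 least. The SD of log2 levels within groups was 0.37 for Per1, which placed it at the 97.9th percentile among the 1000 genes nearest to it in level. It was 0.29 for Per2 (92.7th percentile) and 0.24 for Npas2 (88.5th percentile). Per3, Cry1, Arntl and Clock had SDs of 0.20, 0.19, 0.16 and 0.13, and Cry2 had 0.10 (42.3rd percentile). Over all 49 libraries Per2 covered a 3.19-fold range, with its lowest and highest values both in the tamoxifen group (libraries 9 and 21). Per1 covered 2.67-fold, Npas2 2.41-fold, Cry1 2.20-fold, and Cry2 1.46-fold.

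Among the 5 groups together, 1 of the 8 genes differed by limma's moderated F test, Arntl, with an adjusted p of 0.046. Of all 15856 genes tested, 23.2% passed the same test, so 1 of 8 is no more than the background share. Per3 came next with an adjusted p of 0.067, and the others lay between 0.14 (Per1 and Cry1) and 0.77 (Per2). Without tamoxifen library 9 and vehicle library 3, 4 of the 8 passed, namely Cry2 (adjusted p 0.0011), Per3 (0.0085), Cry1 (0.035) and Arntl (0.038), while 32.2% of all genes passed. In the order of group means, no neighbouring groups differed by more than the larger of their SDs in any of the 8 genes. The highest and lowest group did differ by more than that for Arntl, Per1, Per3 and Cry1, and did not for Clock, Npas2, Per2 and Cry2.

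Arntl, the obligate subunit of the activator, was lower on average in libraries labelled AKO than in 4-month WT, without passing the test. The lowest, median and highest normalised reads were 1216, 1528 and 1811 in the libraries labelled AKO, 1364, 1654 and 1898 in the tamoxifen group, 1359, 1699.8 and 1815 in the vehicle group, 1571, 1772 and 1979 for 4-month WT, and 1398, 1744 and 2189 for 2-month WT. The groups overlapped, and 9 of 10 libraries labelled AKO lay below the median of WT at 4 months. The log2 difference between these groups was -0.24 ± 0.06 (SE), with limma's adjusted p of 0.064. Its adjusted p ranged between 0.032 and 0.13 when single libraries were left out, passing only without library 12 or library 13 labelled AKO. The F test call of Arntl was similarly close to the threshold: it held in 24 of 49 fits that each left out 1 library. Of the exon bases of Arntl, 0.44% overlap an antisense gene, Gm45355, and the sources used here do not say whether reads were counted by strand.

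Clock, which carries histone acetyltransferase activity, and its paralog Npas2 showed no called difference. Clock spanned 3140.0, 4090.3 and 4353 normalised reads (lowest, median, highest) in the libraries labelled AKO, 3525, 4117 and 4706 in the tamoxifen group, 4005, 4305 and 4679 in the vehicle group, 4060.2, 4269 and 4626 for 4-month WT, and 2989.8, 4540.3 and 5066 for 2-month WT. The lowest of these, WT library 37 at 2 months, was far from the rest of its group, and without it Clock was lower in WT at 4 than at 2 months by a log2 difference of -0.12 (limma, adjusted p 0.013, against -0.05 and 0.64 with it). Npas2 had 1649.5, 1858 and 2419 normalised reads in the libraries labelled AKO, 1408, 1953 and 2351 in the tamoxifen group, 1096, 2035 and 2448 in the vehicle group, 1297, 1949 and 2341 for 4-month WT, and 1989, 2117 and 2639 for 2-month WT. The 3 lowest libraries for Npas2 were vehicle library 3, WT library 13 at 4 months and tamoxifen library 9. In WT mice the log2 difference of Npas2 was -0.19 ± 0.09 at 4 against 2 months (limma, adjusted p 0.17). That value depended on which WT libraries were used: it was -0.33 (adjusted p 0.043) with those numbered 11 to 15 and -0.04 (adjusted p 0.81) with those numbered 21 to 25.

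Per1, the Period gene most readily induced by stimuli, had the widest spread within groups. It had 2778, 3396 and 4559 normalised reads (lowest, median, highest) in the libraries labelled AKO, 2575, 4183 and 6527 in the tamoxifen group, 3008, 4337 and 5502 in the vehicle group, 2557, 4141 and 5698 for 4-month WT, and 2775, 5489 and 6829 for 2-month WT. The groups overlapped throughout, and the highest library labelled AKO lay below the highest of each other group. The log2 difference was -0.20 ± 0.13 for the libraries labelled AKO against WT at 4 months (limma, adjusted p 0.51) and -0.33 ± 0.18 for WT at 4 against 2 months (adjusted p 0.24). The 95% intervals were wide, -0.47 to 0.08 and -0.70 to 0.04.

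Per2, a co-repressor of the loop, had 1177, 1411 and 1706 normalised reads (lowest, median, highest) in the libraries labelled AKO, 829.2, 1325 and 2643 in the tamoxifen group, 1087, 1417 and 1758 in the vehicle group, 1107, 1405 and 1587 for 4-month WT, and 1079, 1468 and 2439 for 2-month WT. The groups overlapped, and the tamoxifen group held both extremes. Group means lay between 10.39 ± 0.19 log2 units for 4-month WT and 10.56 ± 0.34 for 2-month WT (SD), and the smallest adjusted p of Per2 was 0.33 in limma, for WT at 4 against 2 months.

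Per3, the Period gene least required for rhythm in mice, rose in the tamoxifen group relative to WT at 4 months. It had 1064, 1291 and 1593 normalised reads (lowest, median, highest) in the libraries labelled AKO, 1022, 1459 and 1616 in the tamoxifen group, 992, 1329 and 1682 in the vehicle group, 1084, 1192 and 1314 for 4-month WT, and 954, 1169 and 1312 for 2-month WT. In the tamoxifen group 9 of 10 libraries lay above the WT median at 4 months and 7 above its highest library, while library 9 lay below its lowest. The log2 difference between the tamoxifen group and WT at 4 months was 0.22 ± 0.07 (SE; 1.17-fold; limma, adjusted p 0.035). Without tamoxifen library 9 it was 0.27, with an adjusted p of 0.0013, yet the call held in only 8 of 20 fits that left out 1 library (adjusted p up to 0.063) and was lost in a model of all 49 libraries (adjusted p 0.081). The log2 difference of Per3 was 0.15 ± 0.08 in the vehicle group against WT (adjusted p 0.32) and 0.07 ± 0.10 for tamoxifen against vehicle (adjusted p 0.9998). Markers of several cell types and regions differed beside it: all 6 bulb markers were lower in the tamoxifen group than in WT at 4 months (median log2 difference -0.88, 0 past the threshold) and all 6 myelin genes fell (median -0.43). All 6 striatal markers (median -0.81, 0 past the threshold, 1 unadjusted), all 4 astrocyte markers (-0.15, 0 past, 3 unadjusted) and all 3 endothelium markers (-0.15, 0 past, 2 unadjusted) were lower too. The mean z-score of the bulb markers ranged between -1.53 and 1.58 in the tamoxifen group and between -1.08 and 1.29 for 4-month WT, and that of the myelin genes between -1.94 and 0.79 in the tamoxifen group and between 0.52 and 1.35 for 4-month WT. Their part in the Per3 result was not tested, and in bulk tissue fewer cells of a type and less RNA per cell cannot be told apart.

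Cry1, a strong repressor of the activator, rose in WT mice at 4 months of diet relative to 2 months. It had 963, 1056 and 1184 normalised reads (lowest, median, highest) in the libraries labelled AKO, 777, 917 and 1262 in the tamoxifen group, 706, 984 and 1553 in the vehicle group, 962, 1072 and 1278 for 4-month WT, and 865, 913 and 1041 for 2-month WT. All 10 WT libraries at 4 months lay above the median at 2 months and 6 lay above its highest library. The log2 difference was 0.23 ± 0.05 (SE; 1.17-fold; limma, adjusted p 0.013), and the call held in 19 of 19 fits that left out 1 library. It was lost with 5 WT libraries at 4 months alone, numbered 11 to 15 (0.20, adjusted p 0.062) or 21 to 25 (0.25, adjusted p 0.070), and in a model of all 49 libraries (adjusted p 0.11). In the tamoxifen group against WT at 4 months Cry1 had a log2 difference of -0.20 ± 0.08 (adjusted p 0.098), which was -0.24 with an adjusted p of 0.028 without tamoxifen library 16. The age of the mice and the time on the diet cannot be told apart in the comparison of WT mice. Beside it, 4 of 4 astrocyte markers and 3 of 4 microglia markers rose, 1 of 6 excitatory cortical markers fell (median log2 difference -0.30) and 1 of 3 endothelium markers rose (median 0.26). All 6 olfactory bulb markers (median log2 difference 1.04, 0 past the threshold), all 6 striatal markers (0.51, 0 past) and all 6 myelin genes (0.18, 0 past) were higher. The part of these markers in the Cry1 result was not tested. Mean z-scores of the bulb markers ranged between -1.08 and 1.29 at 4 months and between -1.73 and 0.75 at 2 months.

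Cry2, the most abundant of the 8, had 6488, 6898 and 7201 normalised reads (lowest, median, highest) in the libraries labelled AKO, 5691, 7689.9 and 8238 in the tamoxifen group, 6233, 7559 and 7964 in the vehicle group, 6501, 6955 and 7606 for 4-month WT, and 6796, 7236 and 8294 for 2-month WT. Its lowest values were those of tamoxifen library 9 and vehicle library 3. The log2 difference was 0.10 ± 0.05 for tamoxifen against WT at 4 months (limma, adjusted p 0.25), and without tamoxifen library 9 it was 0.14 with an adjusted p of 0.0055. Of its exon bases 4.67% overlap D930015M05Rik on the other strand.

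**Figure D2:**
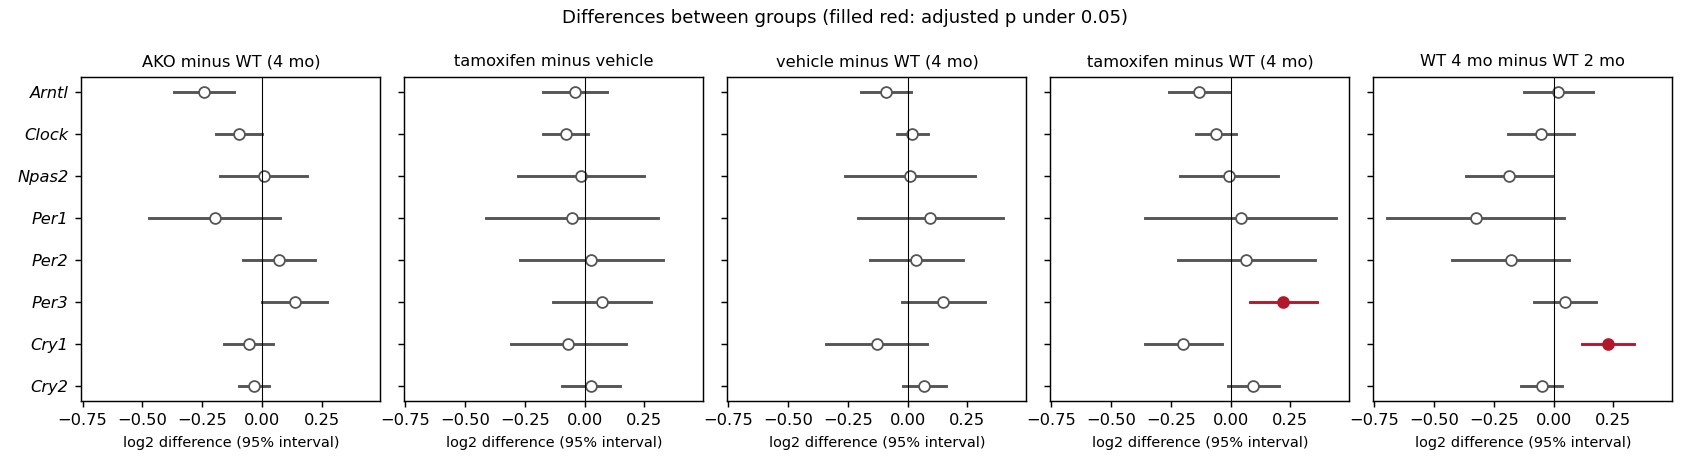
Log2 difference of each clock gene (rows) in 5 comparisons (panels), with its 95% interval from limma; filled red points have an adjusted p under 0.05. Per3 passes in tamoxifen against WT at 4 months and Cry1 in WT at 4 against 2 months, and the other 38 points do not pass.

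Few of the 8 genes passed in any comparison, and their share was never far above that of all genes. In the libraries labelled AKO against WT at 4 months, 0 of 8 passed limma's test (2 at an unadjusted p under 0.05, 0 with limma-voom), where 0.79% of 15185 genes passed, and the median log2 difference was -0.04 over the 8 genes and 0.01 over all genes. For tamoxifen against vehicle 0 of 8 passed (0 unadjusted, 0 with limma-voom), with 0% of all genes passing. Its 95% intervals reached as far as -0.41 to 0.31 for Per1 and -0.10 to 0.15 for Cry2. For vehicle against WT at 4 months 0 of 8 passed (0 unadjusted, 0 with limma-voom) and 6.2% of all genes did. For tamoxifen against WT at 4 months 1 of 8 passed, with 13.1% of all genes, and for WT at 4 against 2 months 1 of 8 passed, with 8.77%. The median log2 difference over the 8 genes was -0.03 for tamoxifen against vehicle, 0.03 for vehicle against WT, 0.02 for tamoxifen against WT and -0.05 for WT at 4 against 2 months, and the medians over all genes were within 0.01 of 0. The counts for tamoxifen against vehicle and for vehicle against WT stayed at 0 without tamoxifen library 9 and vehicle library 3, where 0% and 9.85% of all genes passed. For tamoxifen against WT 2 of 8 then passed (Per3 and Cry2), with 20.8% of all genes. All comparisons with WT at 4 months share its 10 libraries and are not independent. The AKO-labelled effect (against WT at 4 months) minus the tamoxifen effect (against vehicle) passed for 0 of 8 (1 unadjusted, Arntl, -0.20, adjusted p 0.86) and for 0.0383% of all genes in limma.

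Some genes that the loop drives, and that feed back on it, passed in 4 of the 5 comparisons. Their share was well above that of all genes only in the libraries labelled AKO against WT at 4 months. There 2 of 12 genes of the output and stabilising loop rose and 1 fell, where 0.79% of all genes passed. The list was chosen with earlier results of these data known, so this share is given as a description only. The median log2 difference over the 12 was 0.11. Nr1d1 (REV-ERB alpha), a repressor of Arntl, had 3921, 4285 and 5395 normalised reads (lowest, median, highest) in the libraries labelled AKO, 3439, 5085 and 5836 in the tamoxifen group, 3435, 4811 and 5620.0 in the vehicle group, 2995, 3479 and 3781 for 4-month WT, and 3749.8, 4972 and 5239.5 for 2-month WT. Nr1d1 rose by 0.35 ± 0.05 log2 units in the libraries labelled AKO (limma, adjusted p 0.00038), by 0.44 ± 0.08 in the vehicle group (0.0024) and by 0.43 ± 0.09 in the tamoxifen group (0.0037), each against WT at 4 months, and fell by 0.48 ± 0.05 in WT at 4 against 2 months (0.00022). Its group mean was 11.73 log2 units in WT at 4 months and between 12.09 and 12.21 in the other groups. These Nr1d1 calls therefore share the same low group, WT at 4 months. Dbp, a transcription factor of the D-box, rose by 0.59 ± 0.10 in the libraries labelled AKO (0.0038) and by 0.41 ± 0.11 in the tamoxifen group (0.014). Nfil3, which represses through the same motif, fell by 0.66 ± 0.10 in the libraries labelled AKO (0.00096). In the vehicle group against WT 1 of the 12 rose and 0 fell (6.2% of all genes passed), and in the tamoxifen group 2 rose and 0 fell (13.1%). In WT at 4 against 2 months 0 rose and 1 fell (8.77%). For tamoxifen against vehicle 0 of 12 passed (0 unadjusted), with Dbp at a log2 difference of 0.14 ± 0.16. Median log2 differences over the 12 were 0.07 for vehicle against WT, 0.11 for tamoxifen against WT, 0.02 for WT at 4 against 2 months and 0.01 for tamoxifen against vehicle. Against WT at 4 months, 2 of 6 myelin genes fell in the libraries labelled AKO (median -0.18), where both olfactory mucosa markers tested were higher (median 2.62, 0 past the threshold), and all 6 myelin genes fell in the vehicle group (median -0.63), as in the tamoxifen group. In the libraries labelled AKO all 6 striatal markers were also higher (median 0.42, 0 past the threshold) and all 6 olfactory bulb markers lower (-0.70, 0 past). All 6 striatal markers were lower in the vehicle group (-0.89, 0 past). The part of these markers in the changes of these 12 genes and of the modifiers was not tested.

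Among 14 modifiers, which were kinases, ubiquitin ligases, cofactors and other genes linked to the loop, 0 passed in the libraries labelled AKO against WT. There 0.79% of all genes passed, and 2 of the 14 passed unadjusted in limma (Csnk1a1 -0.08, adjusted p 0.13, and Cipc 0.13, adjusted p 0.14). In the vehicle group against WT at 4 months 1 of 14 rose and 2 fell (6.2% of all genes passed). Cipc, an inhibitor of CLOCK, rose by 0.16 ± 0.05 (limma, adjusted p 0.047), and the beta-TrCP ligase genes Btrc (-0.20 ± 0.06, 0.048) and Fbxw11 (-0.14 ± 0.04, 0.035) fell. In the tamoxifen group 1 rose and 3 fell (13.1%): Cipc rose (0.16 ± 0.05, 0.021), and Fbxw11 (-0.19 ± 0.04, 0.0029), Btrc (-0.19 ± 0.05, 0.013) and the kinase gene Csnk1a1 (-0.14 ± 0.03, 0.0088) fell. In WT at 4 against 2 months Cipc (-0.14 ± 0.04, 0.030) and Csnk1d (-0.10 ± 0.03, 0.047) fell (8.77%). Group means of Cipc were 12.13 log2 units in WT at 4 months and between 12.26 and 12.29 elsewhere, so its calls share that low group. For tamoxifen against vehicle 0 of 14 passed (0 unadjusted). Median log2 differences over the 14 lay between -0.04 and 0.0026 in the 5 comparisons.

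Across libraries, after each group's mean was subtracted, some pairs of the core genes were correlated. Of 28 pairs, 13 passed a permutation test of Pearson's r adjusted over 68 relations, 11 positive and 2 negative, and 10 of them also passed by Spearman's rho. All 13 had an r of at least 0.40 in size, a size that 19.4% of all pairs among the genes with a mean of at least 50 reads also reached (9.95% positive and 9.49% negative). The closest pair was Per2 with Cry2, with r 0.76 and rho 0.72 (adjusted permutation p 0.00023 and 0.00034 from a raw p of 1e-05, the smallest the permutations can give). It was 0.70 without the 2 libraries farthest in Per2, and lay between 0.35 and 0.89 within the 5 groups. By r with Per2, Cry2 ranked 25 among 13631 genes, whereas by r with Npas2 it ranked 2241. Per2 also followed Per3 (r 0.49, rho 0.45) and Per1 (r 0.47, rho 0.42), and Cry2 followed Per3 (0.56, rho 0.44), Npas2 (0.53, rho 0.37) and Arntl (0.49, rho 0.50), with adjusted permutation p of 0.0031 to 0.014 for these r values and r of 0.41 to 0.46 without the 2 farthest libraries of each. Within the libraries labelled AKO, Per3 ran against Per2 (r -0.21) and Cry2 (-0.35). Arntl followed Per2 (r 0.46, rho 0.39), Clock (0.43, rho 0.35) and Npas2 (0.40, rho 0.55), and Per2 followed Clock (0.44, rho 0.24) and Npas2 (0.41, rho 0.39). By rho, Clock did not pass with Arntl (adjusted permutation p 0.069) or with Per2 (0.19). Within groups r of Clock ran between 0.02 and 0.71 with Arntl, and between -0.40 and 0.77 with Per2. It was 0.32 with Arntl without the 2 libraries farthest in Arntl, and 0.34 with Per2 without the 2 farthest in Clock. Without tamoxifen library 9 and vehicle library 3, the relations of Npas2 with Cry2 (r 0.27, adjusted permutation p 0.17) and Per2 (0.27, 0.15), of Per2 with Per3 (0.37, 0.052) and Clock (0.42, 0.069), and of Arntl with Clock (0.40, 0.083) no longer passed. Those of Arntl with Npas2 (0.44), Per2 (0.42) and Cry2 (0.52), of Per1 with Per2 (0.45) and of Per3 with Cry2 (0.39) did. The Arntl relations did not pass with reads scaled by library totals, as given below.

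Cry1 ran the other way from Per3, with r -0.56 and rho -0.57 (adjusted permutation p 0.0039 and 0.00091). The coefficient was -0.62 without the 2 libraries farthest in Per3, negative in all 5 groups, and between -0.74 and -0.65 in the libraries labelled AKO, the tamoxifen group and the vehicle group. In WT it was -0.06 at 4 months and -0.05 at 2 months. Cry1 and Npas2 were also opposed (r -0.46, rho -0.25, adjusted permutation p 0.034 and 0.20), but that relation ran between -0.71 in the vehicle group and 0.55 in the libraries labelled AKO, and was -0.24 (adjusted permutation p 0.24) without tamoxifen library 9 and vehicle library 3. Cry1 and Cry2, the Cryptochrome paralogs, did not pass (r -0.31). With reads scaled by library totals 6 pairs passed, and without tamoxifen library 9 and vehicle library 3 7 pairs did. Per2 with Cry2 (r 0.66 and 0.69), Per3 with Cry1 (-0.51 and -0.53), Per1 with Per2 (0.45 and 0.45) and Per3 with Cry2 (0.41 and 0.39) passed in both. With library totals, Arntl no longer passed with Cry2 (r 0.34, adjusted permutation p 0.075), Per2 (0.33, 0.094), Clock (0.31, 0.12) or Npas2 (0.23, 0.17). The relations of Per2 with Clock (0.27, 0.16) and Npas2 (0.28, 0.10), and of Npas2 with Cry2 (0.28, 0.12), were lost there too.

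**Figure D3:**
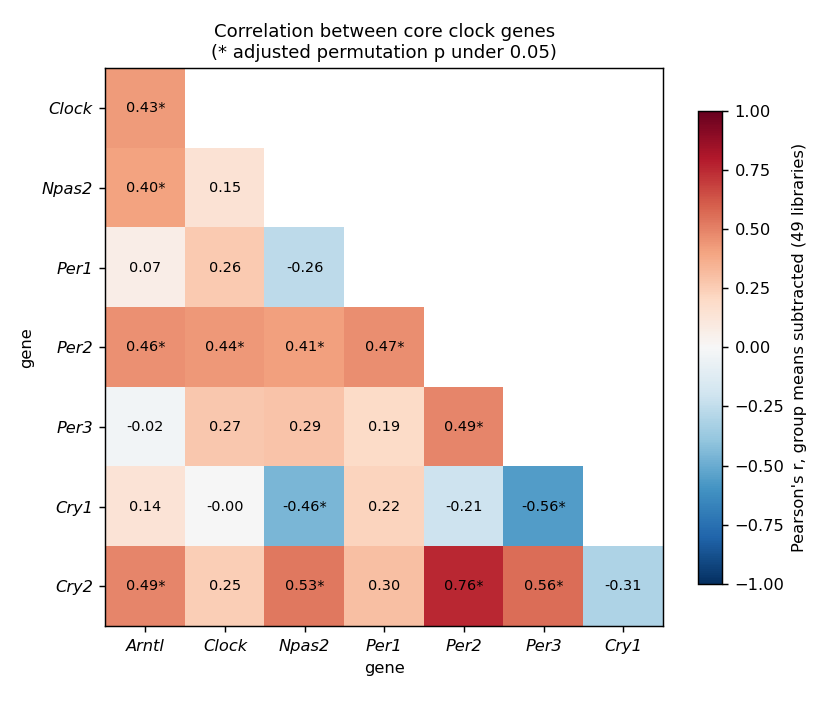
Pearson's r between each pair of clock genes over 49 libraries, with group means subtracted; colour gives r from -1 (blue) to 1 (red), and stars mark an adjusted permutation p under 0.05. Per2 and Cry2 have the highest r (0.76) and Per3 and Cry1 the lowest (-0.56).

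Some of these genes also followed the tissue markers or the activity genes of a library. Npas2 was lower where olfactory bulb markers were higher, with r -0.72 and rho -0.69 (both adjusted permutation p under 0.001, at 0.00023 and 0.00034). The relation was negative in all 5 groups, between -0.90 in the tamoxifen group and -0.24 in WT at 2 months, and was -0.68 without the 2 libraries farthest in Npas2 and -0.64 without tamoxifen library 9 and vehicle library 3. Cry2 (r -0.51, rho -0.41), Per2 (-0.46, rho -0.42) and Per3 (-0.42, rho -0.34) were lower with these markers and Cry1 higher (0.44, rho 0.29), with adjusted permutation p of 0.0046 to 0.028 for r over 49 libraries. For Cry1 the relation was 0.25 without the 2 libraries farthest in Cry1 and ran between -0.42 and 0.82 within groups. Without tamoxifen library 9 and vehicle library 3, none of these 4 relations with the bulb markers passed, whereas that of Npas2 did. Per2 was lower where myelin genes were higher (r -0.42, rho -0.34, adjusted permutation p 0.028 and 0.080). Npas2 was higher with striatal markers (r 0.38, rho 0.31, adjusted permutation p 0.041 and 0.10). That r was 0.20 without the 2 libraries farthest in Npas2, and ran between -0.50 and 0.84 within groups.

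Per1 rose with the immediate early genes, which neurons switch on within minutes of activity. Over 49 libraries r was 0.69 and rho 0.59 (adjusted permutation p 0.00023 and 0.0011), and r was 0.60 without the 2 libraries farthest in Per1. It lay between 0.39 and 0.89 in 4 groups and at -0.03 in WT at 4 months. Per1 also rose with glucocorticoid-induced genes (r 0.55, rho 0.57, adjusted permutation p 0.0042 and 0.0014; 0.51 without the 2 farthest), positive in all 5 groups and 0.81 in WT at 4 months. Per1 itself was left out of both lists. It was lower where striatal markers were higher (r -0.46, rho -0.47, adjusted permutation p 0.012 and 0.015). The part of the striatal markers in the other relations of Per1 was not tested. Per2 also rose with the glucocorticoid-induced genes (r 0.37, rho 0.26, adjusted permutation p 0.044 and 0.19). That r was 0.23 without the 2 libraries farthest in Per2, and ran between -0.17 and 0.67 within groups.

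**Figure D4:**
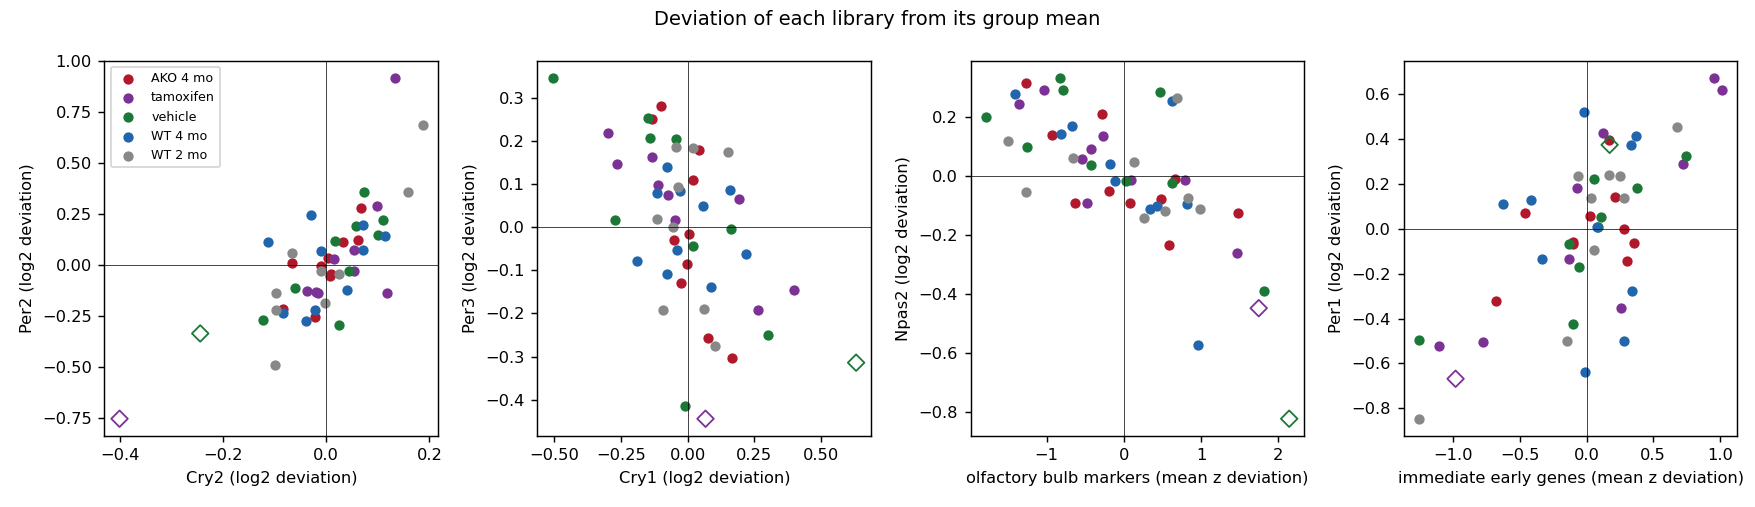
Deviation of each library from its group mean: Per2 against Cry2, Per3 against Cry1, Npas2 against the mean z-score of olfactory bulb markers, and Per1 against that of immediate early genes; gene axes are log2 units and open diamonds are tamoxifen library 9 and vehicle library 3. The r values are 0.76, -0.56, -0.72 and 0.69.

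The activity genes passed well above the share of all genes only in the libraries labelled AKO against WT at 4 months. Per1 leaned the same way there without passing (log2 difference -0.20). The lists of activity genes were chosen with earlier results of these data known, so their excess is a description and not an independent finding. Of 20 immediate early genes, 0 rose and 14 fell in the libraries labelled AKO against WT at 4 months (median log2 difference -0.86), among them Egr2 (-1.72 ± 0.24, limma, adjusted p 0.000515), Fosb (-1.19 ± 0.15, 0.00038), Fosl2 (-0.93 ± 0.13, 0.000515) and Gadd45b (-0.45 ± 0.06, 0.00038). Against WT at 4 months, 1 fell in the vehicle group (Egr4, -0.51 ± 0.15, 0.047) and 1 in the tamoxifen group (Bdnf, -0.48 ± 0.11, 0.0073). In WT at 4 against 2 months 2 fell, Bdnf (-0.36 ± 0.10, 0.025) and Gadd45b (-0.25 ± 0.07, 0.031). The tests for tamoxifen against vehicle gave 0 (1 unadjusted, Nptx2). Medians over the 20 were -0.46 for vehicle and -0.38 for tamoxifen against WT, and -0.24 for WT at 4 against 2 months. Of 16 glucocorticoid-induced genes, 2 fell in the libraries labelled AKO (Cdkn1a -0.67 ± 0.14, 0.025, and Pdk4 -0.37 ± 0.09, 0.044), 1 fell in the vehicle group (Pdk4 -0.46 ± 0.10, 0.0069) and 1 rose in the tamoxifen group (Hif3a 0.92 ± 0.26, 0.025). In WT at 4 against 2 months 0 of 16 passed (2 unadjusted), with Hif3a at -0.72 (adjusted p 0.075) the nearest, and for tamoxifen against vehicle 0 of 16 (0 unadjusted). Medians over the 16 were -0.29 in the libraries labelled AKO and between -0.07 and 0.01 in the other comparisons.

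The genes whose levels ran most like each core gene were ranked by Pearson's r over the 49 group-centred libraries among 13631 other genes, leaving out the 8 themselves and predicted or clone-named genes, as a description. For Arntl they were Gramd4 (r 0.69), Mlxip (0.68) and Ahdc1 (0.67). Clock was nearest to Itsn2 (0.89), Trip12 (0.87) and Hook3 (0.87), and Npas2 to Plcl2 (0.91), the receptor kinase gene Tyro3 (0.90) and Smap2 (0.89). The order was less tight for Per1, with Errfi1 (0.83), Zfp189 (0.83) and the Egr co-repressor gene Nab2 (0.82). Per2 ran with Elfn2 (0.84), the clock repressor gene Bhlhe40 (0.84) and Dusp18 (0.80). Per3 ran with Boc, Nt5c3 and Ppm1m (0.73 each), and Cry1 with Igfbpl1 (0.78), Dock10 (0.76) and Kcnk13 (0.74), above which 1 predicted gene was left out. Cry2 ran with the actin-associated synaptopodin gene Synpo (0.87), Nuak1 (0.86) and Sytl2 (0.855). Of all 13631 genes, 17.97% had an r over 0.5 with Npas2 and 15.8% with Cry2, against 1.44% with Per1 and 1.26% with Arntl.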

How the data were processed

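Total RNA from frontal cortex was made into libraries with a stranded mRNA kit, per the labels' protocols. The deposited table holds log2 values of 24495 genes in 50 value columns, of which 1 matched no sample and was not used. The sources used here give no aligner, counter, build or scaling. The deposited log2 values were found to be log2(reads divided by a size factor + 1): low values gave whole reads for 99.92% to 100.0% of genes within 0.1, and 7 genes that did not were left out. Symbols turned into dates (27) were restored from gene IDs.

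Differences were tested with limma 3.58.1 in R 4.3.3 (intensity trend, robust, two-sided) on the deposited values of the groups compared, with a pseudocount of 1, and Benjamini-Hochberg adjustment over all genes tested at 0.05. Genes needed the equivalent of 10 reads in at least the smaller group's number of libraries. A fold change on this scale understates that of genes with few reads. Correlations used 100000 permutations within groups. List levels are means of z-scores. Positions and exon lengths are from GENCODE M21 (GRCm38), promoter windows from RefSeq. Both the genes and the lists were chosen with earlier results of these data known. All 8 genes are named; other lists name up to 4 past the threshold per comparison by smallest p, and otherwise the 2 nearest at most. The tests were run on simulated data first.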

Additional observations from a re-analysis of the deposited data

Results flagged for a closer look

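Of 40 sets of values, 1 for each clock gene and group, 4 had a library far from the others by Dixon's test, and chance gives about 1 in 20. Clock was 11.62 log2 units in library 6 labelled AKO, where the nearest other library of the group had 11.90. It was 11.55 in WT library 37 at 2 months, against 12.08 in the nearest. Npas2 was 10.34 in WT library 13 at 4 months, against 10.80 in the nearest. That library had the highest olfactory bulb marker level of its group (mean z-score 1.29, against 1.15 in the nearest). It also had the lowest striatal marker level of its group (mean z-score -1.73, against -0.12 in the nearest). Cry2 was 12.47 in tamoxifen library 9, against 12.84 in the nearest, and that library was the lowest of all 49 in excitatory cortical markers (mean z-score -3.72). Whether these marker levels account for the low values was not tested.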

How the results depend on the processing

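Over 2032 values of the 8 genes under alternatives, 1965 stayed on the same side of the threshold, 47 lost a call, 20 gained one and 0 reversed a call. Most of these values belong to results that were not called at first, so their total says little about the calls. With 1 library left out, the F test call of Arntl held in 24 of 49 fits. The call of Per3 in tamoxifen against WT held in 8 of 20, and that of Cry1 in WT at 4 against 2 months in 19 of 19. The number of the 8 genes that differed among the groups was 1, and became 0 with no filter on low values and 4 without tamoxifen library 9 and vehicle library 3, a choice made after the data were seen. For tamoxifen against WT at 4 months the number was 1, and became 0 in 1 model of all 49 libraries, with WT libraries 11 to 15 or 21 to 25 alone, and with the replicate block on 2 shared numbers, and 2 without the same pair of libraries. For WT at 4 against 2 months it was 1, and became 0 in the model of all 49 libraries and with WT libraries 21 to 25. With libraries 11 to 15 it stayed at 1, but the gene was Npas2 and not Cry1. The 13 correlated pairs became 6 with library total scaling and 7 without the pair of libraries. Leaving out each library in turn gave 0 to 1 genes for the libraries labelled AKO, 0 to 0 for tamoxifen against vehicle, 0 to 0 for vehicle against WT, 0 to 2 for tamoxifen against WT, 1 to 2 for WT at 4 against 2 months, 0 to 3 among the groups and 0 to 0 for the difference of effects. Libraries labelled AKO and WT libraries with the same title number showed no common deviation (r -0.27 to 0.20 over 5 numbers). So few numbers cannot settle whether they pair the libraries. With the replicate block, 0 of the 8 genes passed in the libraries labelled AKO (Arntl -0.10, adjusted p 0.66). The causes of these changes were not tested. Over all genes, calls ranged between 62 and 206 (AKO-labelled), 651 and 1494 (vehicle), 1471 and 3176 (tamoxifen) and 772 and 2846 (WT at 4 against 2 months) when 1 library was left out. Other scalings moved the median of all genes by at most 0.02 log2 units. Every value of the 8 genes rested on 585 reads or more. Counting error alone would give an SD of 0.017 (Cry2) to 0.046 (Cry1) log2 units, against 0.10 and 0.19 between libraries of a group.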
